A study of Mus musculus with 45 samples.

Results

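The genes described here are 31 markers of lymphocytes and plasma cells, followed across pancreatic islet RNA from 3 inbred mouse strains, both sexes and a pair of diets. They were taken by gene symbol, and all 31 were found, in 32 of the 22904 rows of the deposited matrices, because Cd37 has a second row. By their textbook roles they form 4 classes, with 8 B cell surface and transcription genes (Cd79a, Cd79b, Ms4a1, Cd22, Blk, Pax5, Fcmr and Cxcr5), 5 immunoglobulin and plasma cell genes (Ighm, Ighd, Igkc, Jchain and Mzb1), 11 T cell receptor and coreceptor genes (Cd3d, Cd3e, Cd3g, Lck, Zap70, Cd4, Cd8a, Cd8b1, Trbc2, Cd2 and Cd5) and 7 genes that several lymphocyte classes share (Cd27, Cd37, Ltb, Ccr7, Il7r, Cd52 and Coro1a). All 32 rows passed the filter on low counts and were tested among 20306 genes.

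Islets of Langerhans, the endocrine cell clusters of the pancreas, were taken at 16 weeks of age from mice of C57BL/6J, a common laboratory strain, CAST/EiJ, a wild-derived strain, and NZO/HlLtJ, an obese strain prone to diabetes. The diets, each with fiber, began at 6 weeks of age. One was the control, with 10% fat, and the other was high in fat (44%) and sugar. The 12 groups of strain, sex and diet held 4 libraries each in 9 groups and 3 libraries each in the other 3, namely NZO/HlLtJ males on each diet and the 10% fat males of CAST/EiJ. Whether every library stands for its own mouse is not in the labels, so the p-values reflect spread between libraries, part of which may be technical.

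An islet holds resident macrophages but few lymphocytes, and lymphocyte transcripts in islet RNA can come from cells within the islet, around its vessels and ducts, or from lymphoid tissue carried along at isolation. B cells carry a surface immunoglobulin whose signal passes through the CD79A and CD79B chains, and plasma cells, their secreting descendants, turn off many B cell surface genes while they make immunoglobulin and its joining chain. T cells read antigen through a receptor that signals through the CD3 chains, LCK and ZAP70, with CD4 or CD8 as coreceptor. In bulk RNA, a change in the number of such cells and a change in RNA per cell cannot be told apart.

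The 45 libraries held 57.2 to 110 M counts each, with a median of 84.4 M. Levels are counts per 1e+06 counts (CPM), scaled with TMM composition factors of 0.486 to 1.178. Counts were rounded, and 3 counts, the limit that a count of 0 allows, came to 0.0266 to 0.0634 CPM depending on the library. Ins2, an insulin gene and defining islet marker, was at 28604 CPM or more in every library. Transcripts of another strain, at 1% or more of that strain's level, were present in 4 libraries: CAST/EiJ female 44% fat replicates 1, 2 and 4, and C57BL/6J female 44% fat replicate 2. Before any comparison, 4 libraries stood apart in all 4 classes of lymphocyte genes, with sums at least 3 times the median of the other libraries of their group. These were CAST/EiJ male 10% fat replicate 3, CAST/EiJ male 44% fat replicate 1, C57BL/6J male 44% fat replicate 2 and NZO/HlLtJ female 44% fat replicate 1, and counts that rest on them are given with and without them. They were picked by the levels of the genes described here, so the values without them are a description. Such counts have no share of all genes beside them.

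Proximal promoters, 250 bases before to 50 bases after the start site, were in the RefSeq table (GRCm38.p6) for 17 of the 31 genes. Short letter patterns of ETS, EBF1 and RUNX factors, families that act in lymphocyte development, were searched there on both strands. The promoters shown are those of the 5 genes that held at least 1 of these 3 patterns. They are the B cell genes Cd79a and Cd22, the T cell genes Cd3e and Lck, and the cytokine receptor Il7r. The letters CAGGAAGT, an ETS pattern, occurred in 4 of the 17 promoters (Cd79a, Cd3e, Lck and Il7r) and in 3.33% of all 32851 promoters in the table. TCCC, any 2 bases and GGGA, the pattern named for EBF1, occurred in 1 of the 17, Cd22, and in 0.904% of all promoters, and TGTGGTT, the pattern named for RUNX, in 1 of the 17, Il7r, and in 5.27%. Capitals mark these letters in the 5 sequences, written 5′ to 3′ on the strand of the gene.
Cd79a (chr7:24897247-24897546, plus strand): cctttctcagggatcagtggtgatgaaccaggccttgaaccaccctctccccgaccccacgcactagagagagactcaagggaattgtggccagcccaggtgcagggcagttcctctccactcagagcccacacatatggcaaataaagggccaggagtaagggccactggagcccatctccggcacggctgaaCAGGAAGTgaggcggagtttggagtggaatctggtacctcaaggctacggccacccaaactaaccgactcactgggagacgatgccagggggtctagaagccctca
Cd22 (chr7:30878979-30879278, minus strand): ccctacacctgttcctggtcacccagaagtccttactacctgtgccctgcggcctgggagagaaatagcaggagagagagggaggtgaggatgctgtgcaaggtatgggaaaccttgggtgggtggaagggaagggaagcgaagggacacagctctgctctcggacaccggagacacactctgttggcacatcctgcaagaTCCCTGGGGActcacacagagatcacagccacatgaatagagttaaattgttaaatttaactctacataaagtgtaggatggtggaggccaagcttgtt
Cd3e (chr9:45009562-45009861, minus strand): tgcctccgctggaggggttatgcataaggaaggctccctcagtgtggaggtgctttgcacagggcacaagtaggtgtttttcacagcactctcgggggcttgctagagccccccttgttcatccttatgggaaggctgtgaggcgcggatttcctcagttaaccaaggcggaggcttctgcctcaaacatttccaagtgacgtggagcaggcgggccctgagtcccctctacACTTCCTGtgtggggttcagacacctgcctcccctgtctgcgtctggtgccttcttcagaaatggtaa
Lck (chr4:129558323-129558622, minus strand): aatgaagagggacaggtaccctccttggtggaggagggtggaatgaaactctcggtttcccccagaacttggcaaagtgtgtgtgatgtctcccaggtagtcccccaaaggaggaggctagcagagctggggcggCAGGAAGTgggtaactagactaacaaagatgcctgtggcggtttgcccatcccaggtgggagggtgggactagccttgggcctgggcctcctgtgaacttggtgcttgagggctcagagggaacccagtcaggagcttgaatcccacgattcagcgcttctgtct
Il7r (chr15:9529827-9530126, minus strand): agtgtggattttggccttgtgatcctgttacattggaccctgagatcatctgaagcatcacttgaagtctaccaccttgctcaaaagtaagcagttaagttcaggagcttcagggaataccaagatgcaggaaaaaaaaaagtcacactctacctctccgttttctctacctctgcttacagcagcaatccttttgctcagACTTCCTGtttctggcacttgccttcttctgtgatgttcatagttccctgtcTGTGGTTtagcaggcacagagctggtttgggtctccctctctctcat

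The ETS letters began 56 bases before the start site in Cd79a, 115 before it in Lck, 18 before it in Cd3e and 49 before it in Il7r, and in the latter pair they lay as the reverse complement. The Lck window lies inside the annotated gene (chr4:129548344-129573641, minus strand), so its start site is not the most upstream one. The EBF1 letters in Cd22 began 49 bases before the start site, and the RUNX letters in Il7r began just after the start site of that gene. Other patterns searched in the same windows were AGATAA of GATA factors (Cd3g, and 11.2% of all promoters), the octamer ATGCAAAT (0 of 17, and 1.74%), GAAA, any 2 bases and GAAA of IRF factors (0 of 17, and 3.44%), TATAAA (0 of 17, and 13.6%) and 4 shorter forms. The shorter forms were ATTTGCA (0 of 17, and 4.02%), CCCNNGGGA (2 of 17, and 6.56%), AGGAAG (9 of 17, and 35.4%) and TGTGGT (1 of 17, and 16.8%), and each overlaps its longer form. The 11 patterns were chosen after the promoters had been looked at, and a match is a run of letters, with no binding measured here. Sites of the same factors with other letters are not found in this way, so a promoter without a match may still hold one.

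**Figure D1:**
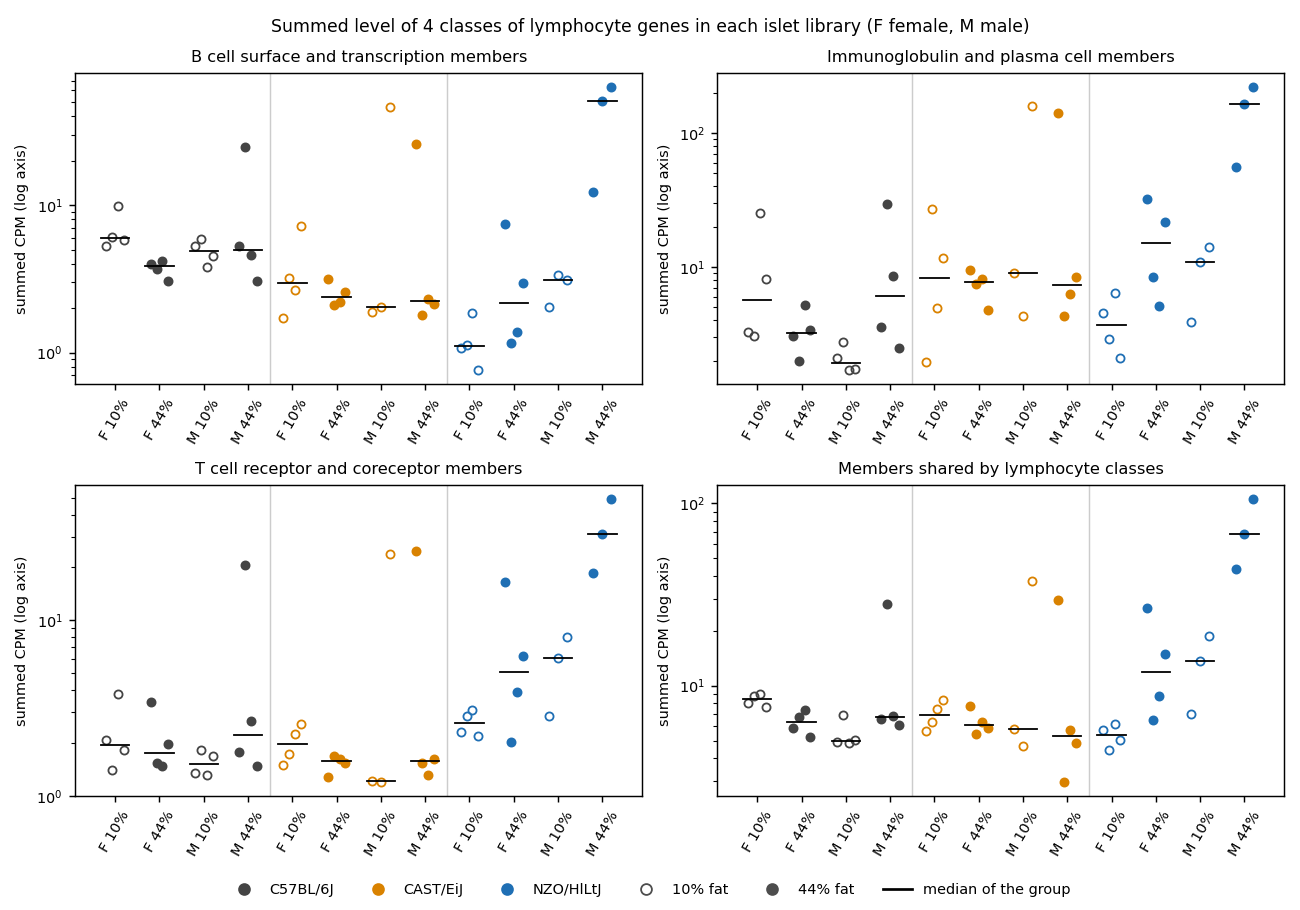
Summed CPM (log axis) of the 4 gene classes in each of the 45 libraries, by strain, sex (F, M) and diet, with open points for 10% fat, filled points for 44% fat and a line at the group median. All 3 libraries of NZO/HlLtJ males on 44% fat are high, while in other groups a single library can stand far above its group.

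In NZO/HlLtJ islets, lymphocyte genes of every class were higher on 44% fat. As a mean over the sexes, 30 of the 32 rows rose and 0 fell, against 18.5% of all genes tested that rose and 17.3% that fell, and the median log2 fold change of the 32 rows was 2.40, beside -0.02 over all genes. The rows that did not pass were Cd2, with a log2 fold change of 1.22 (SE 0.57, adjusted p = 0.0927 in edgeR's quasi-likelihood test, as for every adjusted p below), and the second row of Cd37, which was at 0 counts in 27 libraries. Without NZO/HlLtJ female 44% fat replicate 1 the count was 17 (median 2.06), without NZO/HlLtJ male 10% fat replicate 1 it was 18, and without all 4 libraries that stood apart it was 29 (median 2.04). Summed over all members, NZO/HlLtJ males were at 15.8, 33.9 and 44.0 CPM on 10% fat and at 130, 314 and 436 CPM on 44% fat, and the females at 13.7, 11.3, 17.4 and 10.1 CPM and at 82.8, 18.2, 19.2 and 45.9 CPM. In males every library on 44% fat lay above every library on 10% fat, and so it was in females, where the lowest pair lay close together.

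**Figure D2:**
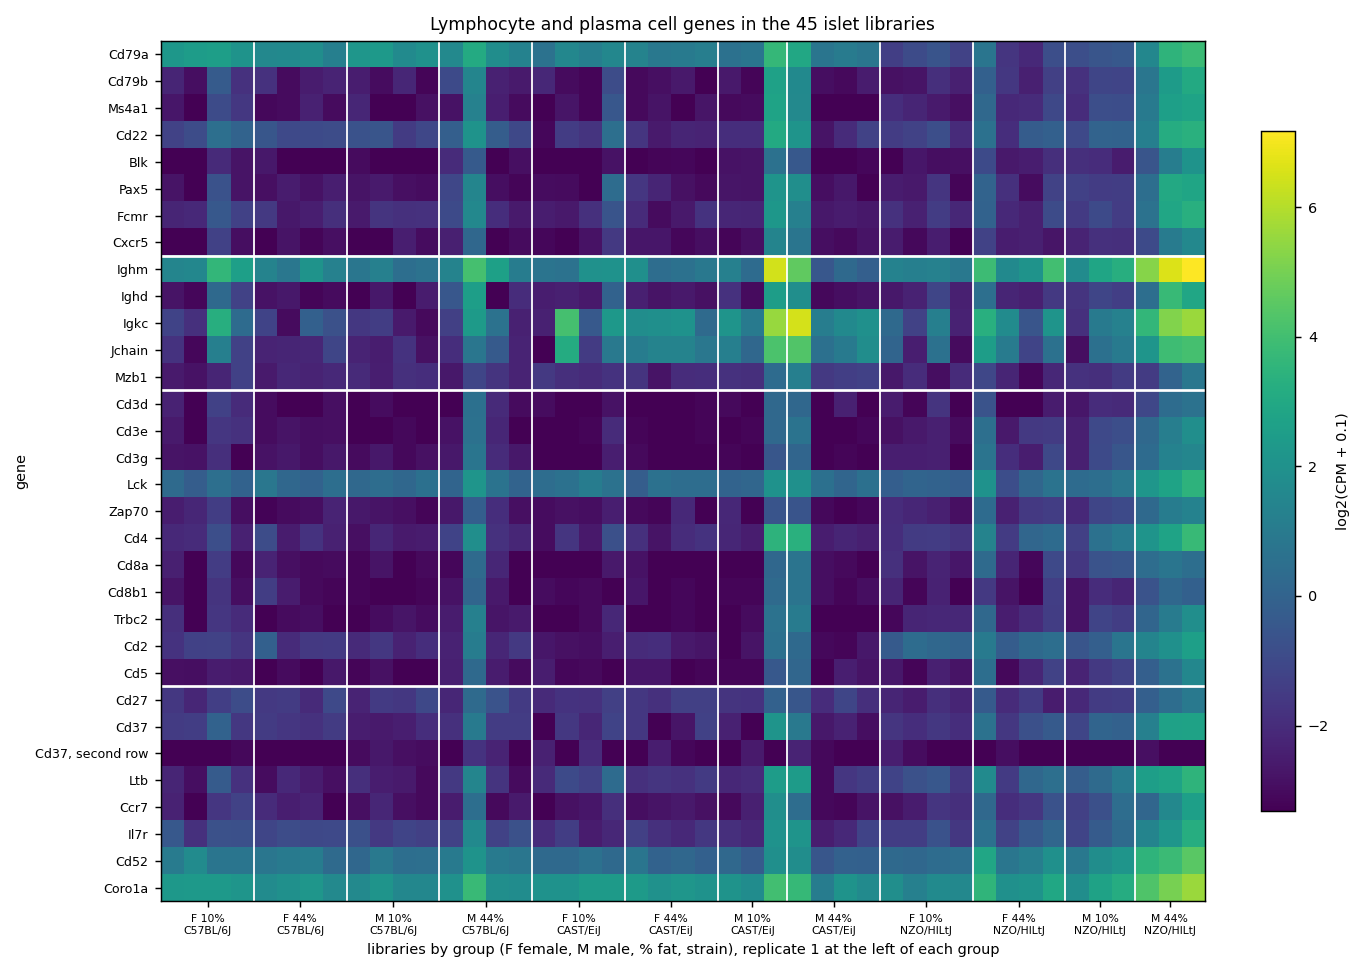
Level of each of the 32 rows in each of the 45 libraries, as log2(CPM + 0.1), with genes in the order of their 4 classes and libraries in the order of groups. Bright columns run through nearly every row in the 3 libraries of NZO/HlLtJ males on 44% fat and in the single high libraries of CAST/EiJ and C57BL/6J.

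Among the B cell genes, all 8 rose as a mean over the sexes in NZO/HlLtJ, with a median log2 fold change of 2.89. Cd79a, which encodes the alpha signalling chain of the B cell receptor, was at 0.480, 0.585 and 0.645 CPM in the males on 10% fat and at 2.81, 11.2 and 14.1 CPM on 44% fat. In the females it was at 0.285, 0.427, 0.560 and 0.326 CPM on 10% fat and at 1.61, 0.208, 0.129 and 0.478 CPM on 44% fat. The males did not overlap between diets, whereas the females did, with 1 high library on 44% fat. As a mean over the sexes the log2 fold change of Cd79a was 2.33 (SE 0.49, adjusted p = 0.00031). Its partner chain Cd79b was at 0.186, 0.353 and 0.341 CPM and then at 1.64, 5.39 and 8.20 CPM in the males, and at 0.0371, 0.0464, 0.167 and 0.0898 CPM and then at 0.828, 0.224, 0.0906 and 0.302 CPM in the females. Replicate 1 was again the high female library, and the fold change of Cd79b was 3.09 (SE 0.94, adjusted p = 0.00929).

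Cd22, an inhibitory coreceptor of B cells, was at 0.404, 0.916 and 0.885 CPM in NZO/HlLtJ males on 10% fat and at 2.23, 8.86 and 10.1 CPM on 44% fat. The females had 0.260, 0.316, 0.481 and 0.146 CPM on 10% fat and 1.43, 0.160, 0.725 and 0.831 CPM on 44% fat. Only the males separated by diet (log2 fold change over both sexes 2.33, SE 0.77, adjusted p = 0.0172). Fcmr, the receptor for IgM, was at 0.240, 0.420 and 0.266 CPM and at 1.47, 7.32 and 9.74 CPM in the males, with 0.186, 0.0928, 0.265 and 0.124 CPM and 0.896, 0.128, 0.0906 and 0.428 CPM in the females. Its diet groups overlapped in females and not in males, with a fold change of 2.78 (SE 0.83, adjusted p = 0.00869). Pax5, the transcription factor that fixes B cell identity and is turned off in plasma cells, was at 0.306, 0.265 and 0.278 CPM in males on 10% fat and at 1.28, 8.005 and 7.13 CPM on 44% fat. Females had 0.0743, 0.0650, 0.206 and 0.0112 CPM and 0.908, 0.176, 0.0259 and 0.315 CPM of it, which overlapped.

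The Pax5 log2 fold change was 3.13 (SE 1.05, adjusted p = 0.0186). Blk, a Src family kinase of the B cell receptor, was near the counting limit on 10% fat, at 0, 0.0557, 0.0295 and 0.0337 CPM in females and 0.164, 0.155 and 0.0759 CPM in males. On 44% fat it was at 0.420, 0.0640, 0.0776 and 0.164 CPM in females and at 0.581, 2.06 and 4.10 CPM in males, so that neither sex overlapped between diets. In females the gap was narrow, at 0.0640 CPM in 44% fat replicate 2 against 0.0557 CPM in 10% fat replicate 2. In the former, 3 counts came to 0.0480 CPM. The Blk fold change of 3.30 (SE 0.78, adjusted p = 0.000804) rests on few counts in the 10% fat libraries and in some 44% fat females. Ms4a1, which encodes CD20, was at 0.153, 0.475 and 0.455 CPM in the males on 10% fat and at 1.84, 6.02 and 6.68 CPM on 44% fat. In females the values were 0.161, 0.111, 0.0688 and 0.0337 CPM and 1.08, 0.128, 0.142 and 0.378 CPM, with overlap, and the fold change over both sexes was 2.996 (SE 1.00, adjusted p = 0.0165). Cxcr5, the chemokine receptor that leads B cells and follicular T cells into follicles, had a fold change of 2.61 (SE 0.94, adjusted p = 0.0253). Without NZO/HlLtJ female 44% fat replicate 1, Pax5 (2.59) and Ms4a1 (2.49) no longer passed, and without NZO/HlLtJ male 10% fat replicate 1 neither Cd22 (2.17) nor Ms4a1 (2.80) did.

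All 5 immunoglobulin and plasma cell genes rose over both sexes, with a median log2 fold change of 2.97. Ighm, the constant region of the IgM heavy chain, was at 3.29, 7.12 and 9.36 CPM in NZO/HlLtJ males on 10% fat and at 38.0, 97.9 and 144 CPM on 44% fat. The female libraries had 2.39, 2.23, 2.38 and 1.75 CPM on 10% fat and 14.8, 3.09, 4.12 and 15.9 CPM on 44% fat. Neither sex overlapped between diets, and the fold change was 2.97 (SE 0.78, adjusted p = 0.0031). Ighd, the IgD heavy chain that mature naive B cells co-express with IgM from the same locus, was at 0.197, 0.353 and 0.291 CPM in males on 10% fat and at 1.27, 13.2 and 7.38 CPM on 44% fat. In females the levels were 0.0619, 0.102, 0.364 and 0.0898 CPM and 1.33, 0.112, 0.0906 and 0.239 CPM, which overlapped (fold change over both sexes 3.11, SE 1.01, adjusted p = 0.0146). Among the NZO/HlLtJ males on 44% fat, replicate 2 had the most Ighd and replicate 3 the most Ighm.

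Igkc, the kappa light chain constant region, was at 0.175, 1.89 and 2.36 CPM in NZO/HlLtJ males on 10% fat and at 12.1, 36.7 and 48.6 CPM on 44% fat. Females were at 1.10, 0.325, 2.19 and 0.101 CPM on 10% fat and at 9.82, 3.22, 0.582 and 4.22 CPM on 44% fat. The females overlapped and the males did not, with a fold change over both sexes of 3.36 (SE 1.08, adjusted p = 0.0141). Jchain, which links IgM or IgA units and is made by plasma cells, was at 0.0328, 1.35 and 1.85 CPM in males on 10% fat and at 4.31, 15.1 and 16.6 CPM on 44% fat. In females it was at 0.929, 0.0836, 1.40 and 0.0225 CPM and at 5.65, 1.95, 0.349 and 1.40 CPM, again with overlap (fold change 2.72, SE 0.92, adjusted p = 0.0199). Mzb1, an endoplasmic reticulum chaperone of antibody-secreting and marginal zone B cells, had the lowest fold change of the class, 1.48 (SE 0.58, adjusted p = 0.041). Its exons share 57.2% of their bases with the same-strand gene Spata24 in GENCODE M21, so its counts are uncertain. Without NZO/HlLtJ female 44% fat replicate 1, Ighd (2.31) and Jchain (2.25) no longer passed, and without NZO/HlLtJ male 10% fat replicate 1 neither Igkc (3.08) nor Jchain (2.41) did.

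Of the 11 T cell genes, 10 rose over both sexes, with a median log2 fold change of 2.43. Lck, the kinase that starts T cell receptor signalling, was at 1.17, 1.29 and 1.69 CPM in NZO/HlLtJ males on 10% fat and at 4.43, 6.62 and 10.8 CPM on 44% fat. In the females it was at 0.768, 0.947, 0.894 and 0.786 CPM on 10% fat and at 3.97, 0.464, 0.996 and 1.48 CPM on 44% fat. Its lowest level over the 45 libraries was 0.464 CPM, so it was present also where CD3 genes were at 0, and it rose by 1.72 (SE 0.37, adjusted p = 0.000411) on the log2 scale. Cd4, the coreceptor of helper T cells, which macrophages and dendritic cells can also express, was at 0.295, 1.42 and 1.85 CPM in males on 10% fat and at 4.17, 6.66 and 13.5 CPM on 44% fat. Females had 0.161, 0.251, 0.265 and 0.202 CPM and 2.47, 0.256, 0.996 and 1.18 CPM of it, and its fold change was 2.63 (SE 0.92, adjusted p = 0.0236). The male values did not overlap between diets and the female values did. Cd5, a receptor that damps antigen receptor signals in T cells and B-1 cells, was at 0.109, 0.232 and 0.316 CPM in males on 10% fat and at 0.811, 1.46 and 2.82 CPM on 44% fat.

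Cd5 in females was at 0.0619, 0.00928, 0.0884 and 0.0449 CPM on 10% fat and at 1.27, 0.0160, 0.116 and 0.315 CPM on 44% fat, with replicate 1 far above replicate 2 (fold change over both sexes 3.03, SE 0.67, adjusted p = 0.000304). Cd2, an adhesion receptor of T cells and other lymphocytes, was at 0.590, 0.795 and 1.57 CPM in males on 10% fat and at 2.58, 3.77 and 5.93 CPM on 44% fat. In females it was at 0.681, 1.21, 1.03 and 0.910 CPM and at 1.86, 0.720, 1.09 and 1.30 CPM. Cd2 thus had no overlap in males and overlap in females, and was the member of this class that did not pass the test. The 3 CD3 chains had fold changes of 2.16 for Cd3d, 2.96 for Cd3e and 2.79 for Cd3g, with SE of 0.84, 0.82 and 0.71. Zap70, the kinase that binds the phosphorylated receptor, rose by 2.43 (SE 0.57, adjusted p = 0.00085), and Trbc2, a beta chain constant region of the receptor, by 2.68 (SE 0.82, adjusted p = 0.00879). The chains of CD8, the coreceptor of cytotoxic T cells, rose by 1.88 (Cd8a, SE 0.72) and 2.20 (Cd8b1, SE 0.85). Cd4 no longer passed without NZO/HlLtJ female 44% fat replicate 1 (2.33), NZO/HlLtJ male 10% fat replicate 1 (2.38) or NZO/HlLtJ male 44% fat replicate 3 (2.33).

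Among the genes that lymphocyte classes share, 7 of 8 rows rose, with a median log2 fold change of 2.07. Cd52, a small glycoprotein on the surface of lymphocytes and other leukocytes, was at 1.73, 3.49 and 4.34 CPM in NZO/HlLtJ males on 10% fat and at 11.2, 14.1 and 22.6 CPM on 44% fat. Females were at 1.10, 1.05, 1.22 and 1.28 CPM on 10% fat and at 7.33, 1.65, 2.12 and 3.75 CPM on 44% fat, and neither sex overlapped. It had the lowest adjusted p of all members (log2 fold change 2.00, SE 0.35, adjusted p = 3.3e-05), and 14.5% of its exon bases overlap Crybg2 on the opposite strand. Coro1a, an actin regulator found in most leukocytes, was at 3.42, 6.55 and 9.004 CPM in males on 10% fat and at 19.7, 32.4 and 48.0 CPM on 44% fat. Its female values were 3.57, 2.27, 3.17 and 2.85 CPM and 11.7, 3.71, 4.06 and 7.5002 CPM, also with no overlap (fold change 1.80, SE 0.37, adjusted p = 0.000244). Both genes are also made by myeloid cells, and their lowest levels over the 45 libraries were 0.599 CPM (Cd52) and 2.03 CPM (Coro1a).

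Ltb, which encodes lymphotoxin beta, a membrane cytokine needed to build lymph nodes and follicles, was at 0.753, 1.14 and 1.87 CPM in NZO/HlLtJ males on 10% fat and at 5.89, 6.62 and 11.1 CPM on 44% fat. In females it was at 0.334, 0.511, 0.629 and 0.225 CPM on 10% fat and at 3.11, 0.240, 1.02 and 1.35 CPM on 44% fat. The males separated by diet and the females did not, with a fold change of 2.20 (SE 0.77, adjusted p = 0.024). Ltb no longer passed without NZO/HlLtJ female 44% fat replicate 1 (1.84), NZO/HlLtJ male 10% fat replicate 1 (2.06) or 2 (2.16), or NZO/HlLtJ male 44% fat replicate 3 (2.04). Il7r, the receptor for the survival cytokine IL-7, rose by 2.13 (SE 0.66), and Ccr7, the receptor that guides cells to lymph nodes, by 2.15 (SE 0.76, adjusted p = 0.0249). Cd27, a costimulatory receptor of T cells and memory B cells, rose by 1.94 (SE 0.45), and Cd37, a tetraspanin of B cells, by 2.38 (SE 0.74).

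Compared per kilobase of exon, so that genes can be set against each other, Igkc led in NZO/HlLtJ males on 44% fat with 61.1 ± 35.0 CPM per kilobase (mean ± SD, n = 3). Ighm followed with 49.6 ± 28.3, below Igkc in each library. Next came the widely expressed Cd52 (13.4 ± 4.98) and Coro1a (11.99 ± 5.10), with Cd52 the higher in each library. The SD is the spread between libraries, which the genes share, and it does not measure a difference between genes, which was not tested. The B cell chains Cd79a and Cd79b were at 6.42 ± 4.01 and 3.55 ± 2.30 CPM per kilobase, and the T cell genes Lck and Cd4 at 2.49 ± 1.11 and 2.01 ± 1.20. On 10% fat the males had the order Ighm (3.49 ± 1.63), Igkc (2.77 ± 2.17), Cd52 (2.68 ± 1.12) and Coro1a (2.27 ± 1.01). There Ighm was above Igkc, and Cd52 above Coro1a, in each library. Igkc was below Cd52 and Coro1a in replicate 1 and above them in the other replicates.

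**Figure D3:**
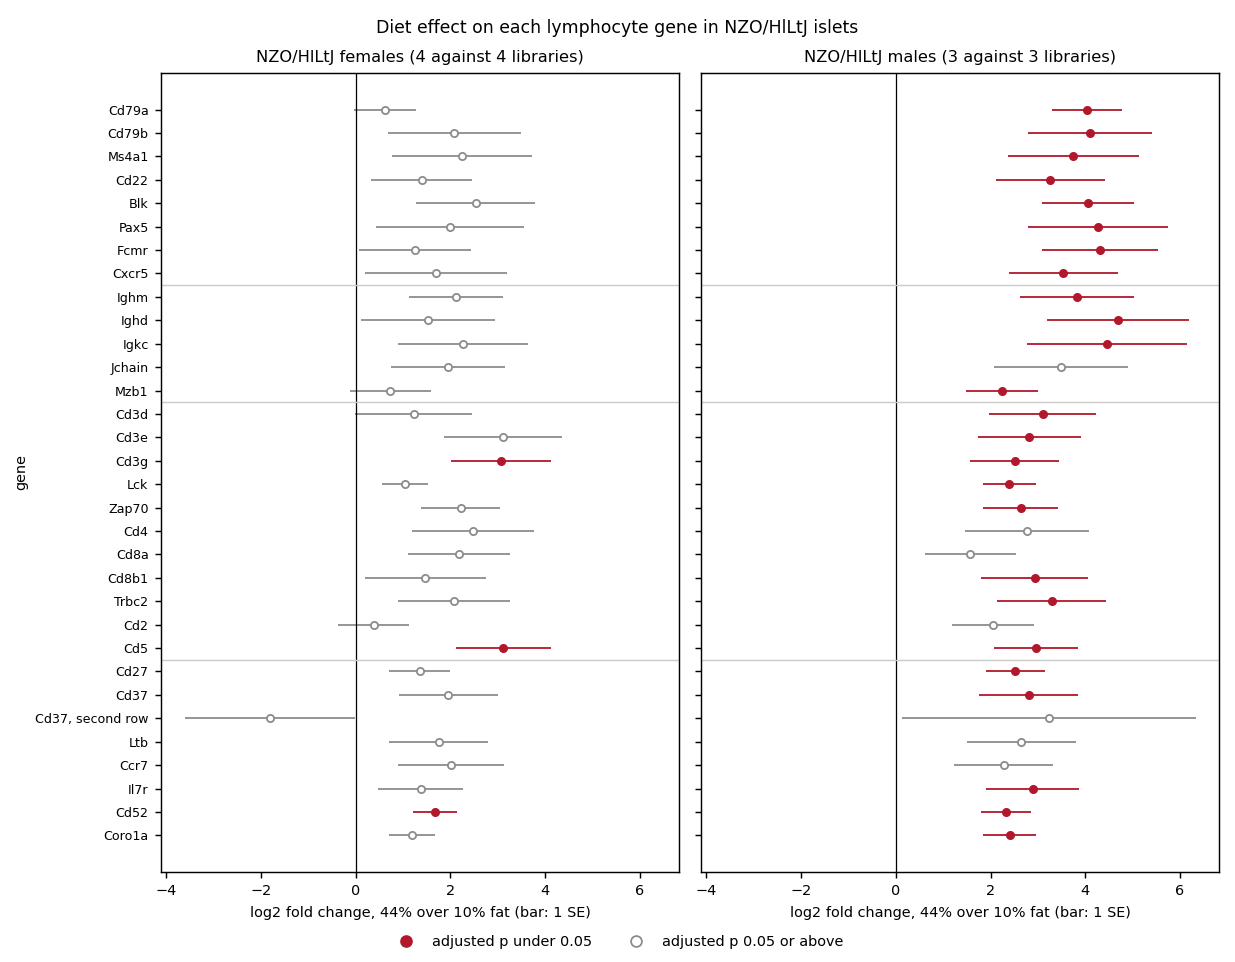
Log2 fold change of each row between 44% and 10% fat in NZO/HlLtJ females (4 against 4 libraries) and males (3 against 3), with bars of 1 SE and filled points for an adjusted p under 0.05. Filled points number 3 in females and 25 in males, and the female points of all 8 B cell genes are open.

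Within a sex, 25 of the 32 rows rose in NZO/HlLtJ males (17.0% of all genes rose) and 3 rose in females (9.37% of all genes), and 0 fell in either. The median log2 fold change of the 32 rows was 2.94 in males and 1.85 in females, beside -0.03 and -0.01 over all genes. In males all 8 B cell genes rose, from 3.26 for Cd22 to 4.31 for Fcmr, as did 4 of 5 immunoglobulin genes, 8 of 11 T cell genes and 5 of 8 shared rows. The male fold change was 4.03 for Cd79a (SE 0.75, adjusted p = 0.000122) and 4.69 for Ighd (SE 1.4998, adjusted p = 0.0149). In females the rows that passed were Cd5 (3.12, SE 1.00, adjusted p = 0.0238), Cd3g (3.06, SE 1.06, adjusted p = 0.0376) and Cd52 (1.68, SE 0.46, adjusted p = 0.0105). By ranges alone, every male library on 44% fat lay above every one on 10% fat in 29 rows (20.0% of all genes did so), all but Mzb1, Ccr7 and the second Cd37 row. In females this held for 4 rows, Blk, Ighm, Cd52 and Coro1a (8.79% of all genes), with Blk close to the counting limit.

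Single libraries weighed on these counts. The female count was 0 without NZO/HlLtJ female 44% fat replicate 1, with a median of 1.01, and 1 without NZO/HlLtJ female 10% fat replicate 2. Without all 4 libraries that stood apart it was 4, with 31 in males. The male count was 7 without NZO/HlLtJ male 10% fat replicate 1, 9 without NZO/HlLtJ male 10% fat replicate 2 or NZO/HlLtJ male 44% fat replicate 3, and 16 without NZO/HlLtJ male 44% fat replicate 2. The sample codes carry a number series (76, 80 or 89) that the labels do not explain, and in NZO/HlLtJ series 80 held females only on 10% fat and males only on 44% fat, while series 89 held the reverse. Within series 76 alone, with 2 against 2 females and 1 against 1 males, 5 rows rose over both sexes and 0 in females, and 1 male against 1 allows no reading of that sex. With the series as a factor the male count was 14.

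The difference between the male and the female diet effect in NZO/HlLtJ was called for 1 of 32 rows, Cd79a, against 4.42% of all genes with a larger effect in males. The Cd79a difference was 3.41 on the log2 scale (SE 0.97, adjusted p = 0.0222), with a diet effect of 0.63 (SE 0.66) in females and of 4.03 (SE 0.75) in males. It was not called without NZO/HlLtJ female 44% fat replicate 2, NZO/HlLtJ male 10% fat replicate 1 or 2, or NZO/HlLtJ male 44% fat replicate 3, and without NZO/HlLtJ female 44% fat replicate 1 the count was 2. Without all 4 libraries that stood apart it was 7. The median difference was 1.95 over the 8 B cell genes and 0.42 over the 11 T cell genes, and whether these classes differ was not tested. All these differences are partly mixed with the number series of the sample codes. In NZO/HlLtJ, a series with only 10% fat females and 44% fat males stands against a series with only the reverse. Between the libraries of that pair of series, a diet-by-sex difference and a series difference cannot be told apart.

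Most other listed genes of B, T and NK cells also rose in NZO/HlLtJ over both sexes. In this comparison 18.5% of all genes tested rose and 17.3% fell, and no list was tested against these shares. Of 16 other B cell genes 15 rose and 0 fell (median log2 fold change 2.67), among them Cr2, the complement receptor of mature B cells and follicular dendritic cells (3.69, SE 1.22). Of 19 other T cell genes 15 rose and 1 fell (median 2.07), with Trbc1, a receptor constant region (2.99, SE 0.80), and Gimap3, a lymphocyte GTPase (2.98, SE 0.84), at the top. All 10 NK and cytotoxic cell genes tested rose (median 2.07), including the granule gene Nkg7 (2.97, SE 0.52) and the NK receptor Ncr1 (2.86, SE 0.47). Of 8 other immunoglobulin and plasma cell genes tested, out of 15 listed, 4 rose (median 1.03), among them the light chain Iglc2 (2.83, SE 0.97) and the plasma cell factor Irf4 (1.86, SE 0.70). Homing and lymph node stroma genes rose in 6 of 10 (median 1.00), among them the mucosal addressin Madcam1 (1.67, SE 0.42), and germinal centre genes in 2 of 7 (median 0.76), which were Gcsam (3.13, SE 0.59) and S1pr2 (1.49, SE 0.23).

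Markers of some other cell types also rose in this comparison, while others fell or were not called, beside the same shares of all genes. All 13 macrophage genes rose (median 1.92), led by Siglec1 (2.59, SE 0.62) and Mrc1 (2.41, SE 0.49), and their summed level was 107, 192 and 340 CPM in males on 10% fat and 656, 742 and 1175 CPM on 44% fat. In females that sum was 78.5, 80.4, 83.4 and 75.0 CPM on 10% fat and 282, 193, 226 and 282 CPM on 44% fat, so neither sex overlapped. Dendritic cell genes rose in 8 of 9 (Clec10a 2.81 and Xcr1 2.65), neutrophil genes in 5 of 6 (Ngp 5.61 and S100a8 3.04) and duct genes in 5 of 8 (Spp1 1.96 and Cftr 1.89). Endothelial and lymphatic genes rose in 5 and fell in 2 of 10 (Pdpn 1.74 and Vwf 1.33), and endocrine genes rose in 1 and fell in 5 of 12 (Ucn3 -1.18 and Slc2a2 -1.07). None of the 7 red blood cell genes was called (median -0.54), nor any of 13 acinar genes (median 1.08), the digestive enzyme genes of exocrine pancreas. No listed gene in the matrix was at 0 in every library of an NZO/HlLtJ group.

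Acinar genes summed to 36498, 34161 and 48389 CPM in the 10% fat males of NZO/HlLtJ, against 63776, 115319 and 142253 CPM in the 44% fat males, with no overlap, and to 18233, 69012, 18137 and 13794 CPM and 51935, 30480, 51512 and 80822 CPM in females, with overlap. Among the males on 44% fat, replicate 1 had the lowest and replicate 3 the highest sum of acinar genes, of macrophage genes and of all lymphocyte members. The part of macrophage, duct or acinar content in the lymphocyte result was not tested. In CAST/EiJ males on 44% fat the order was different: CAST/EiJ male 44% fat replicate 2 had 213233 CPM of acinar genes and 10.7 CPM of the members, and replicate 1 of that group had 6240 CPM and 221 CPM.

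In C57BL/6J and CAST/EiJ, 0 of the 32 rows passed for diet as a mean over the sexes, in edgeR and in DESeq2 and limma alike. At an unadjusted p under 0.05, edgeR found 1 row in C57BL/6J and 0 in CAST/EiJ, DESeq2 3 and 2, and limma 0 and 0. In C57BL/6J 0.0246% of all genes passed, and in CAST/EiJ 0.0443%. The median log2 fold change of the rows was 0.77 in C57BL/6J and -0.46 in CAST/EiJ, beside 0.0059 and -0.0037 over all genes, and these medians rest on single libraries. Without C57BL/6J male 44% fat replicate 2 the C57BL/6J median was -0.05. The CAST/EiJ median was -2.32 without CAST/EiJ male 44% fat replicate 1, 1.13 without CAST/EiJ male 10% fat replicate 3 and -0.30 without both, so that its sign turned with the library left out. Leaving out any 1 library of these strains left both counts at 0. By ranges, Cd79a was lower in every C57BL/6J female library on 44% fat (2.85, 3.08, 3.47 and 2.18 CPM) than in any on 10% fat (4.64, 5.52, 5.77 and 4.04 CPM), the single such row (1.32% of all genes). Cd3g, Cd4, Trbc2 and Cd37 were higher in every C57BL/6J male library on 44% fat than in any on 10% fat (1.61% of all genes), but by little. The lowest value on 44% fat and the highest on 10% fat were 0.0583 and 0.0579 CPM for Cd3g and 0.0527 and 0.0514 CPM for Trbc2, near the counting limit. They were 0.118 and 0.116 CPM for Cd4 and 0.175 and 0.160 CPM for Cd37. In all of these genes replicate 2 was the highest library on 44% fat.

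The diet effect itself differed between NZO/HlLtJ and C57BL/6J for 3 rows, all with a higher value in NZO/HlLtJ (9.67% of all genes). These were Cd79a (difference 2.69, SE 0.63, adjusted p = 0.00315), Cd52 (1.77, SE 0.47, adjusted p = 0.00823) and Coro1a (1.53, SE 0.49, adjusted p = 0.0271). Without C57BL/6J male 44% fat replicate 2 the count was 6, without NZO/HlLtJ female 44% fat replicate 1 it was 2 (Coro1a 1.32, adjusted p = 0.0502), and without all 4 libraries that stood apart it was 15. Between NZO/HlLtJ and CAST/EiJ the diet effect differed for 14 rows, all in the same direction (13.0% of all genes), among them 6 of 8 B cell genes, 2 of 5 immunoglobulin genes, 1 of 11 T cell genes and 5 of 8 shared rows. Cd79b had the largest difference (4.82, SE 1.497, adjusted p = 0.0158) and Ighm one of 4.26 (SE 1.04, adjusted p = 0.00321). That count was 25 without CAST/EiJ male 44% fat replicate 1, 9 without NZO/HlLtJ female 44% fat replicate 1, 6 without CAST/EiJ female 10% fat replicate 4, 4 without CAST/EiJ male 10% fat replicate 3, and 5 without the 4 libraries that carry transcripts of another strain. Without CAST/EiJ male 10% fat replicate 3 the difference was 1.93 for Cd79b (SE 1.71, adjusted p = 0.454) and 2.18 for Ighm (SE 0.89, adjusted p = 0.0764). Without all 4 libraries that stood apart, 15 rows were called. Both differences share the NZO/HlLtJ libraries.

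Outside NZO/HlLtJ males, high lymphocyte levels were found in single libraries. CAST/EiJ male 10% fat replicate 3 had 268 CPM summed over all members, 17.8 times the median of its group's other libraries, and CAST/EiJ male 44% fat replicate 1 had 221 CPM, 14.1 times. C57BL/6J male 44% fat replicate 2 had 103 CPM, 5.98 times, and NZO/HlLtJ female 44% fat replicate 1 had 82.8 CPM, 4.31 times. That T cell, B cell and immunoglobulin genes were high together in these libraries follows from the rule that picked them. In NZO/HlLtJ males every class sum on 44% fat lay above every one on 10% fat. Ighm in CAST/EiJ males was at 2.27, 1.19 and 87.8 CPM on 10% fat and 24.4, 0.629, 1.09 and 0.804 CPM on 44% fat, and Cd4 at 0.117, 0.0791 and 11.1 CPM and 9.92, 0.0767, 0.113 and 0.0911 CPM. For C57BL/6J males on 44% fat the values were 2.46, 16.6, 6.20 and 2.04 CPM of Ighm and 0.335, 3.59, 0.179 and 0.118 CPM of Cd4.

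**Figure D4:**
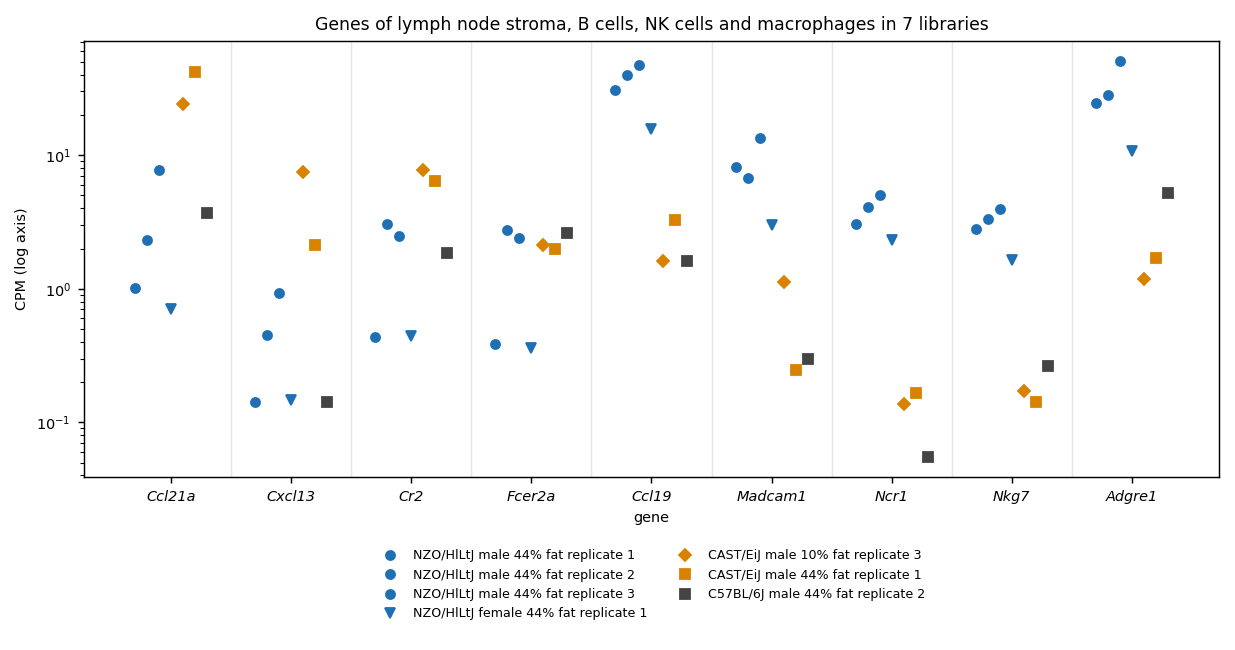
CPM (log axis) of 9 genes in the 3 libraries of NZO/HlLtJ males on 44% fat and in the 4 single libraries high in all classes of lymphocyte genes. Ccl21a, Cxcl13 and Cr2 are highest in the CAST/EiJ libraries, while Ccl19, Madcam1, Ncr1, Nkg7 and Adgre1 are highest in NZO/HlLtJ. Levels of Ccl19, Madcam1 and Adgre1, and the sum of NK and cytotoxic cell genes, are above those of CAST/EiJ on 10% fat as well.

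Genes of lymphoid stroma, NK cells and macrophages are given next for the lymphocyte-rich libraries. They were chosen after their values were seen. Ccl21a, a chemokine of lymph node stroma and lymphatic vessels, was at 23.9 CPM in CAST/EiJ male 10% fat replicate 3 and at 41.7 CPM in CAST/EiJ male 44% fat replicate 1, beside 1.01, 2.33 and 7.68 CPM in the NZO/HlLtJ males on 44% fat. Cxcl13, the chemokine of B cell follicles, was at 7.52 and 2.13 CPM in the same CAST/EiJ libraries and at 0.143, 0.450 and 0.922 CPM in the NZO/HlLtJ males. Cr2 was at 7.71 and 6.35 CPM in the CAST/EiJ pair and at 0.439, 3.06 and 2.49 CPM in the NZO/HlLtJ males. These 3 genes were higher in the CAST/EiJ pair, but the sums of related lists were not. The 10 homing and stroma genes summed to 102 and 116 CPM in the pair and to 112, 144 and 196 CPM in the NZO/HlLtJ males, and the germinal centre genes to 22.3 and 19.8 CPM and to 27.1, 31.7 and 50.9 CPM.

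Other genes were higher in the NZO/HlLtJ males than in the CAST/EiJ pair. Ncr1 was at 3.04, 4.09 and 5.07 CPM in NZO/HlLtJ males on 44% fat and at 0.137 and 0.166 CPM in the pair, and Nkg7 at 2.81, 3.32 and 3.94 CPM and at 0.171 and 0.142 CPM. Adgre1, which encodes the macrophage surface protein F4/80, was at 24.4, 28.0 and 51.0 CPM against 1.18 and 1.70 CPM. Ccl19, a chemokine of T cell zones, was at 30.8, 40.1 and 47.5 CPM against 1.61 and 3.26 CPM, and Madcam1 at 8.20, 6.72 and 13.5 CPM against 1.13 and 0.248 CPM. For 3 of these genes the strains also differed on 10% fat over all their libraries, with NZO/HlLtJ above CAST/EiJ by 3.34 for Ccl19 (SE 0.27), 3.80 for Madcam1 (SE 0.59) and 1.47 for Adgre1 (SE 0.20) on the log2 scale. The summed NK and cytotoxic cell genes, which include Ncr1 and Nkg7, were also higher in NZO/HlLtJ on 10% fat. In females they were at 0.674 to 1.37 CPM against 0.0655 to 0.359 CPM in CAST/EiJ, and in males at 4.82 to 5.82 CPM against 0.0565 to 2.29 CPM. In CAST/EiJ females on 10% fat, 4 of the 10 genes, Nkg7 among them, were at 0 in every library. A strain difference in alignment was not tested for these genes. The other libraries of the pair's groups had medians of 1.46 CPM of Adgre1 on each diet, and of 1.01 CPM (10% fat) and 1.59 CPM (44% fat) of Ccl19. The lymphocyte-rich pair was thus near its own strain for Adgre1, but this did not hold for all macrophage genes. In CAST/EiJ male 10% fat replicate 3 Cd68 was at 4.46 CPM, where the median of its group's other libraries was 2.14 CPM. The summed macrophage genes were at 416 CPM there, beside a median of 109 CPM. Ncr1 was higher in NZO/HlLtJ than in C57BL/6J on 10% fat by 3.62 (SE 0.83).

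C57BL/6J male 44% fat replicate 2 had 0.0549 CPM of Ncr1, 0.264 CPM of Nkg7, 1.60 CPM of Ccl19 and 3.69 CPM of Ccl21a, where the medians of its group's other libraries were 0.0292, 0.0292, 0.994 and 0 CPM. NZO/HlLtJ female 44% fat replicate 1 had 2.31 CPM of Ncr1, 15.6 CPM of Ccl19 and 0.703 CPM of Ccl21a, where those medians were 0.144, 9.99 and 0 CPM.

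The summed macrophage genes were at 416 CPM in CAST/EiJ male 10% fat replicate 3 and at 111 CPM in CAST/EiJ male 44% fat replicate 1, where the medians of the other libraries of their groups were 109 and 103 CPM. The ratio of summed B cell to T cell members was 1.94 and 1.05 in the CAST/EiJ pair, 1.20 in C57BL/6J male 44% fat replicate 2, 0.451 in NZO/HlLtJ female 44% fat replicate 1, and 0.663, 1.65 and 1.29 in the NZO/HlLtJ males on 44% fat. This ratio therefore did not separate the strains. With single libraries and 1 group, these differences carry no test.

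With all libraries, few members differed between strains on 10% fat, and Cd79a was among them. Cd79a was at 2.18 to 8.33 CPM with a median of 3.66 over the 16 C57BL/6J libraries, at 1.42 to 12.5 CPM with a median of 1.99 over the 15 CAST/EiJ libraries and at 0.129 to 14.1 CPM with a median of 0.520 over the 14 NZO/HlLtJ libraries. On 10% fat the log2 difference of NZO/HlLtJ from C57BL/6J was -3.24 (SE 0.48, adjusted p = 1.11e-06), and that from CAST/EiJ was -2.85 (SE 0.48, adjusted p = 5.99e-06). Without CAST/EiJ male 10% fat replicate 3 the latter was -1.95 (SE 0.43, adjusted p = 0.000245), and Cd79a was then also lower in CAST/EiJ than in C57BL/6J (-1.27, SE 0.40, adjusted p = 0.00946). Cd79b did not follow this order. It had a median of 0.1005 CPM in C57BL/6J, 0.0345 CPM in CAST/EiJ and 0.263 CPM in NZO/HlLtJ. The ratio of Cd79a to Cd79b had a median of 35.6 in C57BL/6J (n = 16), 40.0 in CAST/EiJ (n = 14, with 1 library at 0 for Cd79b left out) and 1.92 in NZO/HlLtJ (n = 14).

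**Figure D5:**
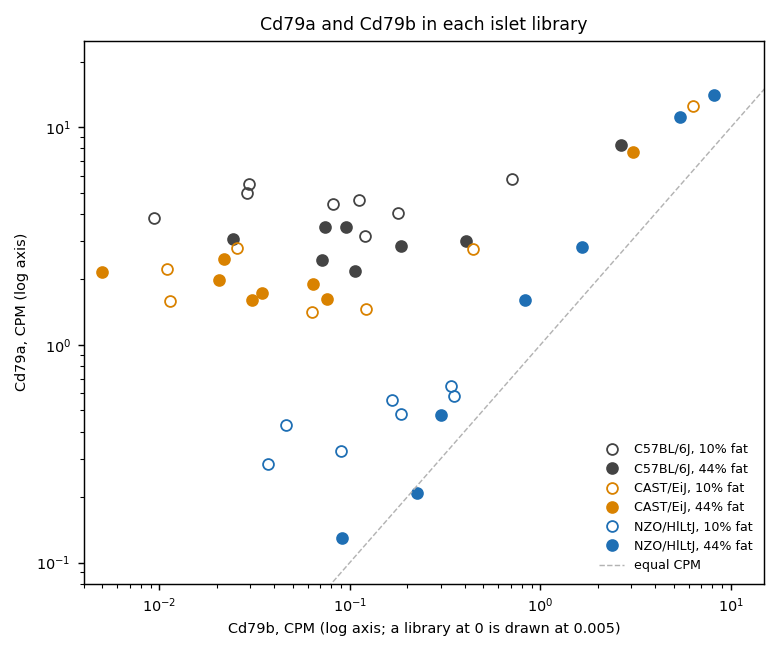
Cd79a against Cd79b (CPM, both axes logarithmic) in each library, by strain and diet, with a dashed line at equal levels. In C57BL/6J and CAST/EiJ Cd79a stays at 1.42 CPM or more as Cd79b goes toward 0, whereas in NZO/HlLtJ both fall together, and the lymphocyte-rich libraries of the 3 strains lie near each other.

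In the lymphocyte-rich libraries the ratio was 1.97 and 2.52 in the CAST/EiJ pair, 3.14 in C57BL/6J male 44% fat replicate 2, 1.95 in NZO/HlLtJ female 44% fat replicate 1, and 1.71, 2.08 and 1.71 in the NZO/HlLtJ males on 44% fat. In the other C57BL/6J and CAST/EiJ libraries Cd79b was at most 0.709 CPM while Cd79a was at 1.42 CPM or more, and in most of them Ms4a1 and Blk were at or near 0 as well. No exon of another GENCODE M21 gene overlaps the exons of Cd79a (chr7:24897381-24902197, GRCm38, plus strand). Whether reads of NZO/HlLtJ and CAST/EiJ were counted with their strain variants was not given in the labels used here, so a strain difference in alignment was not tested.

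Cd2 went the other way. It was at 0.590 to 5.93 CPM with a median of 1.15 in NZO/HlLtJ, at 0.102 to 2.01 CPM with a median of 0.216 in C57BL/6J and at 0 to 1.38 CPM with a median of 0.0542 in CAST/EiJ. On 10% fat it was higher in NZO/HlLtJ than in C57BL/6J by 2.25 on the log2 scale (SE 0.64, adjusted p = 0.00435) and than in CAST/EiJ by 2.66 (SE 0.74, adjusted p = 0.00264), while the CD3 genes passed in neither comparison. With CAST/EiJ male 10% fat replicate 3 left out, the Cd2 difference from CAST/EiJ was 4.84, Cd3g passed too (3.92), and Cd2 was lower in CAST/EiJ than in C57BL/6J (-2.56, SE 0.98, adjusted p = 0.0298). As an example, in the 10% fat females of NZO/HlLtJ Cd2 was at 0.681, 1.21, 1.03 and 0.910 CPM and Cd3e at 0.0371, 0.0650, 0.0884 and 0.0225 CPM. Ltb was also higher in NZO/HlLtJ than in C57BL/6J (2.33, SE 0.91, adjusted p = 0.0361). In all, 2 rows were higher and 1 lower in NZO/HlLtJ than in C57BL/6J on 10% fat, against 22.8% and 21.0% of all genes, and 1 was higher and 3 lower than in CAST/EiJ, against 27.6% and 27.2%. The first count was 4 higher and 1 lower without C57BL/6J female 10% fat replicate 3, and the second 1 higher and 1 lower without CAST/EiJ female 10% fat replicate 2. With CAST/EiJ male 10% fat replicate 3 left out, the second was 5 higher (Cd3g, Cd8a, Cd2, Ccr7 and Cd52) and 1 lower (Cd79a), and the median difference of the rows went from -0.56 to 1.37. Without all 4 libraries that stood apart, 9 rows were higher and 1 lower than in C57BL/6J, and 15 higher and 1 lower than in CAST/EiJ, among them Cd3e, Cd3g, Cd8a and Cd2 in both. The shares of all genes above are for the fit with all libraries. Of those 4, only CAST/EiJ male 10% fat replicate 3 was on 10% fat, and it was picked for high levels of these genes.

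Igkc and Jchain were higher in CAST/EiJ than in C57BL/6J on 10% fat. Igkc was at 0.0949 to 90.4 CPM with a median of 3.66 in CAST/EiJ and at 0.0188 to 9.60 CPM with a median of 0.310 in C57BL/6J, and Jchain at 0 to 20.0 CPM with a median of 2.03 and at 0.0148 to 2.24 CPM with a median of 0.138. On 10% fat CAST/EiJ was higher than C57BL/6J for Igkc (3.91, SE 1.09, adjusted p = 0.00317) and for Jchain (4.10, SE 0.99, adjusted p = 0.000849), and higher than NZO/HlLtJ for both (NZO/HlLtJ minus CAST/EiJ -3.08 and -2.45, SE 1.07 and 0.91). Without CAST/EiJ male 10% fat replicate 3 the difference from C57BL/6J was 2.67 for Igkc (SE 1.07, adjusted p = 0.0406) and 3.05 for Jchain (SE 0.99, adjusted p = 0.0116). The difference from NZO/HlLtJ was then no longer called (Igkc -1.81, SE 1.04, adjusted p = 0.148, and Jchain -1.38, SE 0.91, adjusted p = 0.215). On 44% fat the difference from C57BL/6J was 3.33 for Igkc (SE 1.01, adjusted p = 0.00602) and 3.502 for Jchain (SE 0.93, adjusted p = 0.00184), and without CAST/EiJ male 44% fat replicate 1 it was 1.81 for Igkc (adjusted p = 0.0995) and 2.71 for Jchain (adjusted p = 0.0121). Igha, the IgA heavy chain, which is no member, was chosen after its values were seen. It was at 0 counts in 2 of 15 CAST/EiJ libraries and in 10 of 16 C57BL/6J libraries, with medians of 8.61 CPM and 0 CPM.

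Outside NZO/HlLtJ, the library with the most Igha was CAST/EiJ female 10% fat replicate 2, with 16.8 CPM of Igkc, 8.76 CPM of Jchain and 33.8 CPM of Igha, but 1.47 CPM of Ighm, 0.0254 CPM of Cd79b and 0.0509 CPM of Ms4a1. Its immunoglobulin class summed to 27.3 CPM, 5.52 times the median of its group's other libraries, and no other class reached 3 times. By contrast, C57BL/6J female 10% fat replicate 3, at 25.5 CPM for this class (7.80 times), had 12.4 CPM of Ighm, 9.60 CPM of Igkc and 0.684 CPM of Igha, with 0.709 CPM of Cd79b. Igha was thus higher in the CAST/EiJ library and Ighm in the C57BL/6J library.

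Between CAST/EiJ and C57BL/6J on 10% fat, 4 rows were higher and 0 lower in CAST/EiJ (24.4% of all genes were higher), with Pax5 (2.81, adjusted p = 0.04996) and Ltb (2.70, adjusted p = 0.014) beside Igkc and Jchain. Without CAST/EiJ male 10% fat replicate 3, Pax5 (0.41, adjusted p = 0.857) and Ltb (0.82, adjusted p = 0.534) were not called. The rows called were then 2 higher (Igkc and Jchain) and 2 lower (Cd79a and Cd2), and the median difference of the 32 rows went from 1.44 to -0.51. Without all 4 libraries that stood apart, 2 were higher and 4 lower. The 3 strain comparisons on each diet share libraries. The count with all libraries, 4, was 8 without CAST/EiJ male 10% fat replicate 1 or C57BL/6J female 10% fat replicate 3, 9 without CAST/EiJ male 10% fat replicate 2, and 2 without CAST/EiJ female 10% fat replicate 4, in which acinar genes took 693004 CPM. For the same strains on 44% fat 2 rows were higher and 0 lower (24.8% of all genes were higher). Without CAST/EiJ male 44% fat replicate 1, however, 1 row was higher and 11 were lower in CAST/EiJ, without C57BL/6J male 44% fat replicate 2, 4 were higher, and without all 4 libraries that stood apart 2 were higher and 9 lower.

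On 44% fat, NZO/HlLtJ was above C57BL/6J in 27 rows and below it in 0 (32.4% of all genes were higher), with a median log2 difference of 2.59. The differences ran to 3.98 for Jchain (SE 0.95), and Cd79a, Cd22, Cd8b1, Cd27 and the second Cd37 row were not called. Without NZO/HlLtJ female 44% fat replicate 1, 20 rows were higher and 1 lower, with a median of 2.09. Against CAST/EiJ, 26 rows were higher and 0 lower (36.2% of all genes were higher), with a median of 2.62, from 1.11 for Cd27 (SE 0.40) to 4.66 for Cd3g (SE 0.89). Cd27 was not called without NZO/HlLtJ female 44% fat replicate 1 (0.64, adjusted p = 0.176). Igkc and Jchain, high in both strains, were not called there. Without the libraries that carry transcripts of another strain, which leaves 1 CAST/EiJ female library on 44% fat, the CAST/EiJ count was 13. Averaged over the strains, 10% fat males and females had 0 rows past the threshold in edgeR, DESeq2 or limma, and the median log2 difference of the rows went from 0.87 to -0.41 without CAST/EiJ male 10% fat replicate 3. In edgeR 0.911% of all genes passed, and 2, 4 and 0 rows had an unadjusted p under 0.05 in the 3 tools.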

How the data were processed

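Bulk RNA-seq of islets gave 45 libraries. The authors deposited estimated counts per gene, of which 19.7% were not whole numbers (tolerance 1e-09), and a log2-scale variance-stabilised matrix. Per the submitters' processing notes GRCm38 and DESeq2 were used; not given in the sources used here are the aligner, the counter, the use of strand and the handling of strain variants. Before fitting, values were rounded to whole counts. Genes were filtered with filterByExpr over the 12 groups (20306 of 22904 tested), scaled by TMM and fitted in 1 model of the 12 groups with edgeR 4.0.16 (R 4.3.3; quasi-likelihood F test, robust), with Benjamini-Hochberg adjustment over all genes and a threshold of 0.05. DESeq2 1.42.0 and limma 3.58.1 (on the deposited log2 values) were alternatives. SE is the absolute log2 fold change over the square root of F. The script was tested on simulated data. Exon lengths and overlaps came from GENCODE M21. The members, lists and tests were chosen with earlier results of these data known. Values by library are given for the 3 members of each class with the highest mean CPM and the 6 others with the largest fold changes, and for other lists the 2 genes with the largest called changes, except genes that are not reported here. Transcripts of another strain were read from genes at 5 CPM or more in 1 strain and at most 0.05 CPM in the other.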

Additional observations from a re-analysis of the deposited data

Results flagged for a closer look

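In the 9 groups of 4 libraries, sums of the member classes were searched for a library far from the 3 others, by its gap to the nearest one as a share of the group's range. The limit would mark about 1 in 20 sets of normal values, and 11 of 45 were marked. That rate does not hold here, because the sums are skewed, the sets share libraries, and the sum of all members contains the others. The marks are therefore a description. CAST/EiJ male 44% fat replicate 1 stood apart with 26.1 CPM of B cell members, 141 CPM of immunoglobulin members, 24.9 CPM of T cell members, 29.7 CPM of shared members and 221 CPM of all members. C57BL/6J male 44% fat replicate 2 stood apart with 24.7 CPM of B cell, 20.6 CPM of T cell, 28.0 CPM of shared and 103 CPM of all members. C57BL/6J female 10% fat replicate 3 did so for all members (48.2 CPM), and C57BL/6J male 10% fat replicate 2 for the shared ones (6.87 CPM). Gene by gene, 47 of 162 sets were marked, 17 of them for CAST/EiJ male 44% fat replicate 1 and 13 for C57BL/6J male 44% fat replicate 2. The 3 groups of 3 libraries, where CAST/EiJ male 10% fat replicate 3 belongs, were not looked at in this way.

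Effects that differed between groups were those of the interaction tests (log2 differences, adjusted p under 0.05 in edgeR). Between NZO/HlLtJ males and females, a contrast partly mixed with the number series, the diet effect differed for Cd79a by 3.41. Between NZO/HlLtJ and C57BL/6J it differed for Cd79a (2.69), Cd52 (1.77) and Coro1a (1.53). Between NZO/HlLtJ and CAST/EiJ it differed for the B cell genes Cd79a (2.75), Cd79b (4.82), Ms4a1 (4.79), Cd22 (3.78), Pax5 (4.12) and Fcmr (3.88), for the heavy chains Ighm (4.26) and Ighd (4.63), for Lck (1.95), and for Cd27 (1.94), Cd37 (3.15), Ltb (2.99), Cd52 (2.23) and Coro1a (2.07).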

How the results depend on the processing

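Counts are of the 32 rows, and the values with all 45 libraries stand in the report. RLE size factors and no filter on low counts left every count within 1.5 times, and 0 rows passed for diet in C57BL/6J, for diet in CAST/EiJ or for sex under every setting. With library totals only, the counts were 0 for diet in NZO/HlLtJ females, 14 in males, 0 for diet-by-sex, 1 for the NZO/HlLtJ against C57BL/6J diet interaction and 7 for that against CAST/EiJ. With the number series as a factor NZO/HlLtJ males had 14, and within series 76 the counts were 5 over both sexes, 0 in females and 0 in males, where 1 library against 1 says nothing about the series. The older quasi-likelihood method, chosen after seeing the data, gave 1 in females and 14 in males. DESeq2 gave 1 in females, 15 in males, 5 for the interaction with C57BL/6J and 9 for CAST/EiJ minus C57BL/6J on 10% fat. Limma on the variance-stabilised values gave 1 in females, 2 for diet-by-sex, 6 and 22 for the interactions with C57BL/6J and CAST/EiJ, and 2 each for NZO/HlLtJ minus CAST/EiJ and CAST/EiJ minus C57BL/6J on 10% fat. With only the groups compared, the counts were 5 in females, 0 for diet-by-sex, 9 for NZO/HlLtJ minus C57BL/6J on 10% fat and 2 for NZO/HlLtJ minus CAST/EiJ on 10% fat. Without the libraries that carry transcripts of another strain, 5 rows differed in the interaction with CAST/EiJ and 13 for NZO/HlLtJ minus CAST/EiJ on 44% fat. Without the 4 libraries high in all classes, also chosen after seeing the data and by these genes' own levels, the counts were 7 for diet-by-sex, 15 for the interaction with C57BL/6J, 10 and 16 for NZO/HlLtJ minus C57BL/6J and minus CAST/EiJ on 10% fat and 11 for CAST/EiJ minus C57BL/6J on 44% fat. Apart from the fewer libraries where some are left out, the cause was not tested.

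Leaving out 1 library at a time, the count ranged from 17 to 30 for diet in NZO/HlLtJ over both sexes, from 0 to 4 in females and from 7 to 26 in males, and from 0 to 2 for diet-by-sex. It ranged from 2 to 6 for the interaction with C57BL/6J and from 4 to 25 for that with CAST/EiJ. On 10% fat it ranged from 2 to 5 for NZO/HlLtJ minus C57BL/6J, from 2 to 6 for NZO/HlLtJ minus CAST/EiJ and from 2 to 9 for CAST/EiJ minus C57BL/6J. On 44% fat the ranges were 21 to 30, 21 to 27 and 2 to 12 in the same order. For the 18 genes given by library, the NZO/HlLtJ diet effect over both sexes, the only value of single genes recomputed under every setting, was obtained under 25 settings each (450 in all), of which 0 changed direction, 31 lost their call and 3 gained one. Differences between strains were recomputed gene by gene only without the libraries that stood apart, and there Cd79a, Pax5, Ltb, Igkc, Jchain and Cd2 moved as the report gives.

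Library totals only also shifted the all-gene median log2 fold change, to -0.15 for diet in NZO/HlLtJ over both sexes, -0.22 in females, 0.16 for diet-by-sex, -0.24 and -0.23 for the interactions with C57BL/6J and CAST/EiJ, -0.23 and -0.17 for NZO/HlLtJ minus C57BL/6J and minus CAST/EiJ on 44% fat and 0.12 for sex. Genes called higher and lower were then 606 and 883 in NZO/HlLtJ females (1902 and 1590 with TMM), 2343 and 965 in males (3451 and 3067), 206 and 54 for diet-by-sex (897 and 1133), 606 and 938 (1963 and 1851) and 942 and 1685 (2638 and 2571) for the interactions, 4495 and 7802 (6578 and 7199) and 5443 and 7445 (7353 and 7049) on 44% fat, and 40 and 14 for sex (53 and 132). No paired analysis was possible because replicate numbers follow accession order and pair nothing across groups. Genes near the counting limit, such as Blk on 10% fat, rest on few counts.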
